A study of Mus musculus with 6 samples.

Results

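The genes of creatine metabolism were examined in inguinal white adipose tissue (iWAT), a subcutaneous fat depot. They were chosen by symbol as *Gatm* and *Gamt* for creatine synthesis, *Slc6a8* for creatine uptake, *Ckb*, *Ckm*, *Ckmt1* and *Ckmt2* for the creatine kinases, and *Alpl* for alkaline phosphatase. All 8 were found, each in 1 row, among the 55573 genes of the deposited tables, and 7 of them passed the filter on low values. The muscle isoforms *Ckm* and *Ckmt2* were included as a check on the muscle content of the dissected fat.

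RNA-seq had been performed on iWAT from males, 3 mutant and 3 Wt mice on the C57BL/6NTac background, all 3 months old, on regular chow and otherwise untreated, with 1 library per mouse. The mutant mice were homozygous for K283Q and K288R in the thyroid hormone receptor THRA, a global knock-in that removes sites for conjugation of the small ubiquitin-like modifier SUMO in every tissue. The Wt mice were C57BL/6NTac controls bred in the same facility, and the methods do not call them littermates of the mutant mice. The substitutions cannot be read from values per gene, so the expression data do not check the genotype labels.

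Creatine is made in a pair of steps. The enzyme encoded by *Gatm* transfers an amidino group from arginine to glycine, and the enzyme encoded by *Gamt* methylates the product. Cells also take creatine up from the blood through the transporter encoded by *Slc6a8*. Creatine kinases pass the phosphate of ATP to creatine and back, in the cytosol through the brain type (*Ckb*) and muscle type (*Ckm*) subunits and in mitochondria through the ubiquitous (*Ckmt1*) and sarcomeric (*Ckmt2*) enzymes. In thermogenic fat cells creatine is known to be phosphorylated and dephosphorylated in a cycle that uses ATP and releases heat, and *Ckb* and *Alpl*, the tissue-nonspecific alkaline phosphatase, have been placed in that cycle. *Ckm* and *Ckmt2* are highly expressed in striated muscle, but bulk tissue does not show whether muscle alone gave their reads.

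The sequences upstream of the kinase genes are shown because the muscle isoforms and *Ckb* differed in how they varied across the mice. Each is the 250 bases before the RefSeq start site on GRCm38.p6, written 5′ to 3′ on the strand of the gene. Capitals mark matches to CANNTG, the E-box bound by myogenic factors. *Ckm* (chr7:19410844-19411093, plus strand) held 1 match, *Ckmt2* (chr13:91876886-91877135, minus strand) held 4 and *Ckb* (chr12:111672339-111672588, minus strand) held none.
Ckm: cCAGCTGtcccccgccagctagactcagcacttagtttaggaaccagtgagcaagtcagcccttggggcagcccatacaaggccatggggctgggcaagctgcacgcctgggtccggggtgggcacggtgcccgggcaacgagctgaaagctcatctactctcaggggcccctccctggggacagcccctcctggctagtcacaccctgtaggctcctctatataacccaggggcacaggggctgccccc
Ckmt2: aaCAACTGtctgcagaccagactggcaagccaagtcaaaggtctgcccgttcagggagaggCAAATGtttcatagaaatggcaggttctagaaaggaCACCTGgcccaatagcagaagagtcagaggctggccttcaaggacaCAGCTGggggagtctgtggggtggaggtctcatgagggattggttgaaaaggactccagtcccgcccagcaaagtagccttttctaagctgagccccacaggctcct
Ckb: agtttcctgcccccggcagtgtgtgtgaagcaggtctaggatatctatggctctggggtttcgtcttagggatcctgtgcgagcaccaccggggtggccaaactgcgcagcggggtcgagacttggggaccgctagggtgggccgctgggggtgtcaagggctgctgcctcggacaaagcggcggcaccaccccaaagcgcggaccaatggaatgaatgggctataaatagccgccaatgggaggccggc

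CANNTG reads the same on both strands, and 66.2% of the 32851 promoter windows of this length held at least 1 match, so a match is a description of the sequence. AGGTCA, the half-site of thyroid hormone receptor elements, was searched on both strands and occurred in 14.0% of the windows. TGACG, the half-site of the cAMP response element, occurred in 17.8% on either strand. Of the 3 windows printed, none held AGGTCA or TGACG. Promoter windows were given for 7 of the 8 genes, 9 windows in all. AGGTCA was found once upstream of *Gatm*, once upstream of the 5′ start site of *Ckmt1*, and once upstream of the 3′ start site of *Alpl*, where TGACG also occurred once. CANNTG was not limited to the muscle kinases. It had 1 match upstream of *Gatm*, 1 upstream of the 5′ and 2 upstream of the 3′ start site of *Alpl*, and none in the windows of *Ckmt1* and *Gamt*.

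The libraries held 19607423 to 24228381 reads on genes, so that 3 reads correspond to 0.126 to 0.157 normalized CPM, a floor that covers counting error only. Adipocyte genes were high in every mouse, with *Adipoq*, the adiponectin gene, at 1332 to 2219 normalized CPM. Some libraries stood apart in the markers of other tissues. The summed lymphocyte markers were at 5.19 in mutant mouse 1 and at 285 to 774 in the other mice, the summed epithelial markers were at 82.9 in Wt mouse 1 and at 4.96 to 24.2 in the others, and the summed slow-fibre muscle markers were at 5.07 in Wt mouse 1 against 75.1 to 836. The values of the creatine metabolism genes, and the medians of the lists that moved most, are therefore also given without single mice.

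Of the 7 creatine metabolism genes tested, 0 passed a false discovery rate (FDR) of 0.05 in limma, whereas 8.11% of the 16868 genes tested passed it, 5.5% higher and 2.61% lower in the mutant mice. Given the 7 genes and that share, a count of 0 says little about the group. At an unadjusted p under 0.05 were 2 of the 7, *Ckb* and *Slc6a8*, beside 24.2% of all genes. The same 2 genes were those in which the genotypes did not overlap, beside 30.6% of all genes. edgeR's quasi-likelihood test on the reads also called 0 of the 7, and the Wald test of DESeq2 called 1, *Ckb*. Log2 fold changes are given as mutant minus Wt on the log2(value + 0.5) scale, where the median of all genes was -0.05 and that of the 7 genes was 0.18 (0.04 without Wt mouse 3 and 0.40 without Wt mouse 1). The smallest p that an exact two-sided permutation test over 3 and 3 mice allows is 0.1, the value of *Ckb* and *Slc6a8*.

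**Figure D1:**
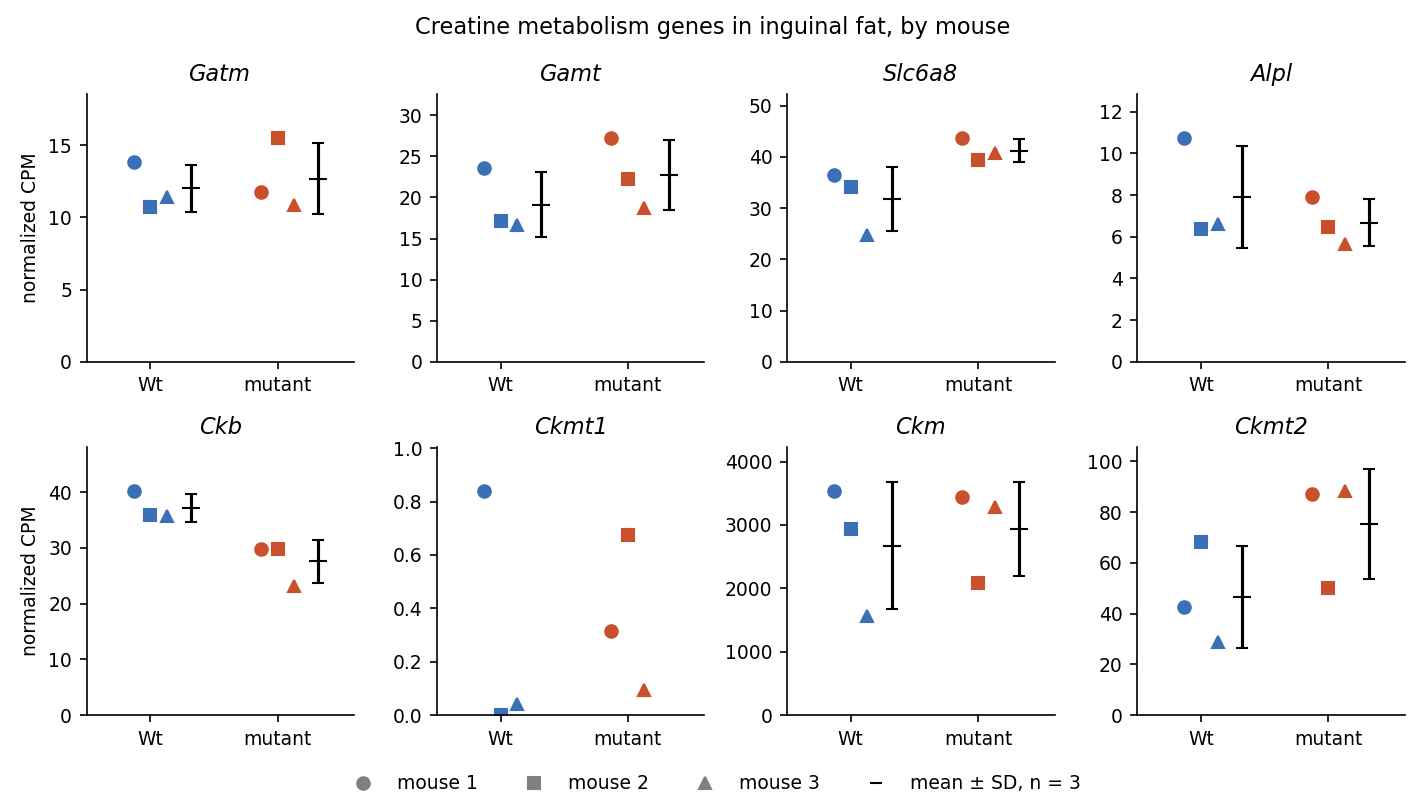
Normalized CPM of the 8 creatine metabolism genes in each of the 6 mice, with a linear axis from 0 in each panel. Blue points are Wt and red points mutant mice, the symbol gives the mouse number, and bars give the mean ± SD of 3 mice (not drawn for *Ckmt1*, which had few reads). The mutant mice lie below the Wt mice for *Ckb* and above them for *Slc6a8*, and the genotypes overlap in the other 6 panels.

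Levels per kb of the longest coding transcript, averaged over the 6 mice, placed *Ckm* highest, at 1023 normalized CPM per kb (570 to 1286). *Ckmt2* followed at 41.0 per kb (19.4 to 59.3), then *Ckb* at 22.0 (15.7 to 27.3) and *Gamt* at 21.2 (16.8 to 27.5). The ranges of these 3 neighbours overlapped, so their order is not fixed by these mice, and with the union of all exons as the length *Gamt* (14.5 per kb) stood above *Ckb* (11.2 per kb). *Slc6a8* was at 9.22 per kb (6.23 to 11.01), *Gatm* at 5.17 (4.50 to 6.48) and *Alpl* at 2.89 (2.24 to 4.25). The ranges of *Slc6a8* and *Gatm* overlapped, whereas those of *Gamt* and *Slc6a8*, and of *Gatm* and *Alpl*, were apart. *Ckmt1* was lowest, at 0.202 per kb (0 to 0.517). Thus the most abundant transcript of the group in these libraries was the muscle-type kinase. The sources do not say how fat was separated from muscle at dissection.

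*Gatm* (ENSMUSG00000027199, chromosome 2, 122594467 to 122611303, minus strand of GRCm38) encodes the rate-limiting enzyme of creatine synthesis, glycine amidinotransferase. It was at 13.9, 10.7 and 11.4 normalized CPM in the Wt mice (numbers 1, 2 and 3 in turn), against 11.7, 15.5 and 10.9 in the mutant mice. The genotypes overlapped, with means of 12.0 ± 1.65 (SD, n = 3) in Wt and 12.7 ± 2.46 (SD, n = 3) in mutant mice. Its log2 fold change was 0.07 (SE 0.17 on this scale, limma adjusted p = 0.823), with a 95% confidence interval from 0.789-fold to 1.39-fold. This small difference changed sign without Wt mouse 2 (-0.0032) or mutant mouse 2 (-0.08).

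*Gamt* (ENSMUSG00000020150, chromosome 10, 80258151 to 80261012, minus strand) encodes guanidinoacetate methyltransferase, which completes the synthesis. Values were 23.6, 17.1 and 16.6 in the Wt mice, against 27.2, 22.3 and 18.8 in the mutant mice. Mouse 1 was the highest of each genotype, and only Wt mouse 1 kept the genotypes from separating. The means were 19.1 ± 3.91 (SD, n = 3) and 22.7 ± 4.24 (SD, n = 3), a log2 fold change of 0.25 (SE 0.19, limma adjusted p = 0.451). It was 0.11 without mutant mouse 1, 0.40 without Wt mouse 1, and 0.51 after a correction for GC content (limma adjusted p = 0.177).

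*Slc6a8* (ENSMUSG00000019558, chromosome X, 73673150 to 73682502, plus strand) encodes the creatine transporter of the plasma membrane. The Wt mice were at 36.6, 34.1 and 24.7 and the mutant mice at 43.7, 39.3 and 40.8. Each mutant mouse lay above each Wt mouse, with the mutant mice close together and Wt mouse 3 lowest. The mean was 31.8 ± 6.27 (SD, n = 3) in Wt and 41.3 ± 2.21 (SD, n = 3) in mutant mice, a ratio of means of 1.30. The log2 fold change of 0.39 (SE 0.15, 95% confidence interval from 0.02 to 0.76) had an unadjusted p of 0.043 and an adjusted p of 0.191 in limma, and so did not pass the FDR. Without Wt mouse 3 it was 0.22 (limma adjusted p = 0.337).

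*Ckb* (ENSMUSG00000001270, chromosome 12, 111669361 to 111672338, minus strand) encodes the brain-type subunit of cytosolic creatine kinase, the main isoform of fat cells. It was at 40.1, 35.8 and 35.8 in the Wt mice, from 737 to 958 reads, and at 29.9, 29.8 and 23.2 in the mutant mice, from 495 to 663 reads. Every mutant mouse was below every Wt mouse. The mean was 37.2 ± 2.50 (SD, n = 3) in Wt and 27.6 ± 3.84 (SD, n = 3) in mutant mice, a ratio of means of 0.741. The log2 fold change was -0.43 (SE 0.12, 95% confidence interval from -0.73 to -0.14), with an unadjusted p of 0.0114 and an adjusted p of 0.0919 in limma. The call depended on the test, since DESeq2 gave an adjusted p of 0.0447 and edgeR's quasi-likelihood test 0.118. The difference kept its sign without each mouse in turn (-0.49 to -0.31), and a correction for GC content reduced it to -0.17 (limma adjusted p = 0.428).

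Brown and beige adipocyte markers, with which *Ckb* is often grouped, were lower on median, at -0.46 over the 10 of 11 tested against -0.05 for all genes. *Ucp1*, the uncoupling protein of thermogenic fat, was at 15.5, 7.39 and 15.3 in the Wt group, against 3.46, 3.23 and 3.51 in the mutant group, and fell by 1.69 on the log2 scale (limma adjusted p = 0.0187). *Zic1*, a transcription factor gene of classical brown fat, was at 0.126 to 0.584 in Wt and 1.17 to 1.62 in mutant mice, and rose by 1.25 (limma adjusted p = 0.0291), a call that edgeR did not make (adjusted p = 0.0516). Of the 10, 6 were at an unadjusted p under 0.05 and in 4 the genotypes did not overlap. Over all genes these shares were 24.2% and 30.6%, and 8.11% passed the FDR in limma. The summed markers overlapped, at 584 to 832 in Wt and 404 to 650 in mutant mice, and no marker was at 0 in any mouse. The list's count past the FDR, 2 in limma, was 3 in DESeq2 and 1, *Ucp1*, in edgeR. In limma it was 0 without Wt mouse 1, Wt mouse 3, mutant mouse 2 or mutant mouse 3, and 3, all lower, without mutant mouse 1. White adipocyte markers had 0 of 8 past the FDR in limma (2 at an unadjusted p under 0.05, 1 in DESeq2, 0 in edgeR) and a median of -0.09, and the 2 with the largest differences were *Lep* (leptin, 0.67) and *Retn* (resistin, 0.59). Both were among the 3 of the 8 that were higher in the mutant mice, and the rest were lower. In bulk tissue, fewer cells of a type and less RNA per cell cannot be told apart, and the part of thermogenic adipocytes in the *Ckb* difference was not tested.

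**Figure D2:**
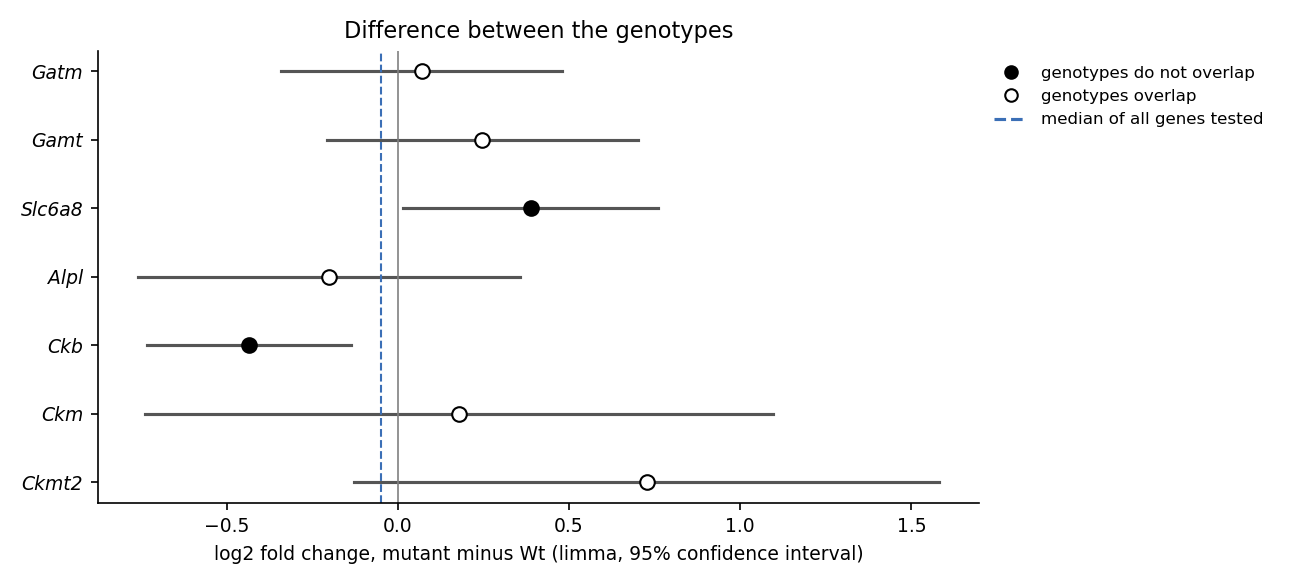
Log2 fold change (mutant minus Wt) of the 7 creatine metabolism genes tested, as points, with 95% confidence intervals from limma as lines. Filled points mark the 2 genes whose genotypes did not overlap, *Slc6a8* at 0.39 and *Ckb* at -0.43, whose intervals exclude 0 before adjustment, and the dashed line is the median of all genes tested, -0.05.

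*Ckm* (ENSMUSG00000030399, chromosome 7, 19404776 to 19422841, plus strand) encodes the muscle-type subunit of cytosolic creatine kinase. It was at 3527, 2935 and 1564 normalized CPM in the Wt mice (numbers 1, 2 and 3 in turn), against 3445, 2076 and 3282 in the mutant mice. The transcript was present in all 6 mice, from 37167 to 84191 reads. The genotypes overlapped, with the lowest value in Wt mouse 3 and the next lowest in mutant mouse 2. Means were 2675 ± 1007 (SD, n = 3) in Wt and 2935 ± 748 (SD, n = 3) in mutant mice, a log2 fold change of 0.18 within its SE of 0.38 (limma adjusted p = 0.793). Without Wt mouse 3 it was -0.17, and without Wt mouse 1 it was 0.42.

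*Ckmt2* (ENSMUSG00000021622, chromosome 13, 91853387 to 91876885, minus strand) encodes the sarcomeric mitochondrial kinase, which is most abundant in oxidative muscle and heart. It was at 42.6, 68.3 and 28.8 in the Wt mice, against 87.3, 50.1 and 88.1 in the mutant mice. Mutant mice 1 and 3 were above all Wt mice, whereas mutant mouse 2 was below Wt mouse 2. The means were 46.6 ± 20.04 (SD, n = 3) and 75.2 ± 21.7 (SD, n = 3), and the log2 fold change was 0.73 (SE 0.36, limma adjusted p = 0.27), the largest of the 7 genes but also with nearly the largest error. Its 95% confidence interval ran from 0.916-fold to 2.99-fold. The value lay between 0.43, without Wt mouse 3, and 1.04, without Wt mouse 2.

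*Ckmt1* (ENSMUSG00000000308, chromosome 2, 121357714 to 121363737, plus strand) encodes the ubiquitous mitochondrial kinase, typical of brain and epithelia. It had 20, 0 and 1 reads in Wt mice 1, 2 and 3 and 6, 15 and 2 reads in mutant mice 1, 2 and 3, at most 0.838 normalized CPM, and did not pass the filter. A difference was not detectable at this depth. The summed epithelial markers, which were highest in Wt mouse 1 at 82.9 and next highest in mutant mouse 2 at 24.2, had the same 2 mice at the top, and were at 4.96 to 11.8 in the other mice. In mutant mouse 2 most of the sum came from *Krt5* (13.8) and *Krt14* (4.62). Its *Krt18* (0.853) was the lowest of any mouse and its *Krt8* (0.314) and *Epcam* (0.987) were low, whereas *Cdh1* (2.47) was exceeded only in Wt mice 1 and 3. The epithelial list had 0 of 7 tested genes past the FDR in limma (1 at an unadjusted p under 0.05, 1 in DESeq2, 0 in edgeR), with a median of -0.97 and the largest differences in *Epcam* (-1.69) and *Krt18* (-1.54). These rested largely on Wt mouse 1, without which the median was 0.14, *Epcam* was at -0.87 and *Krt18* at -0.38. The part of epithelial cells in the *Ckmt1* reads was not tested.

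In transcripts of the 4 kinase genes, each scaled by the union of its exons, *Ckm* made up 95.2% ± 1.22 (SD, n = 3) in Wt and 94.3% ± 0.164 (SD, n = 3) in mutant mice. *Ckmt2* made up 3.33% ± 1.01 and 4.70% ± 0.255. It was at 2.29%, 4.31% and 3.41% in the Wt mice and at 4.69%, 4.46% and 4.97% in the mutant mice, so that the genotypes did not overlap. *Ckb* made up 1.48% ± 0.601 and 0.951% ± 0.361, and the few reads of *Ckmt1* gave no usable share. The shares depend on the length, and with that of the longest coding transcript *Ckb* was at 2.71% and 1.75%. They are given with no test, and a change in *Ckm* alone moves all 4. Thus the main isoform of fat cells was a minor part of the creatine kinase transcripts in each library.

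Skeletal muscle genes other than the kinases were read as a check. Of the 11 fast-fibre markers, 1 passed the FDR, *Myh1*, the myosin heavy chain of fast IIx fibres, at 31.1, 279 and 166 in the Wt group, against 2405, 1986 and 2385 in the mutant group (log2 fold change 4.31, limma adjusted p = 0.0208). That call was lost without Wt mouse 3, mutant mouse 2 or mutant mouse 3. Over all genes, 8.11% passed the FDR in limma. DESeq2 called 2 of the 11 and edgeR 1. At an unadjusted p under 0.05 were 3 of the 11, beside 24.2% of all genes. The genotypes did not overlap in 3 of the 11, beside 30.6% of all genes. The summed fast-fibre markers overlapped between the genotypes, at 11824 to 25327 in Wt and 18241 to 28854 in mutant mice, with a median log2 fold change of 0.61 (0.26 without Wt mouse 3). *Myh4*, the fast IIb myosin, was at 5081 to 11321 in Wt and 5278 to 9267 in mutant mice.

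The 6 slow-fibre markers separated the genotypes, although 0 passed the FDR in limma, in DESeq2 or in edgeR. In each, the lowest mutant mouse lay above the highest Wt mouse, and each was at an unadjusted p under 0.05, with a median log2 fold change of 3.43 (2.16 without Wt mouse 1). Over all genes, the genotypes did not overlap in 30.6%, and 24.2% were at an unadjusted p under 0.05. *Myh7*, the slow myosin heavy chain, was at 2.47, 150 and 35.8 in the Wt group, against 444, 303 and 422 in the mutant group (log2 fold change 3.93, limma adjusted p = 0.13), and *Myl2*, a slow myosin light chain, had a log2 fold change of 3.73 (limma adjusted p = 0.115). The sums were 5.07, 281 and 75.1 in the Wt mice, against 836, 569 and 764 in the mutant mice. The Wt mice differed widely among themselves, and Wt mouse 1 was nearly without slow-fibre transcripts. Of the 10 pan-muscle markers, 0 passed in limma or edgeR, 4 in DESeq2 and 6 at an unadjusted p under 0.05, with a median of 0.79 (0.48 without Wt mouse 3), led by *Mb* (myoglobin, 2.64) and *Myot* (myotilin, 1.34). Their sums were 4746 to 9400 in Wt and 8952 to 13507 in mutant mice, and none of the muscle markers was at 0 in any mouse.

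*Ckm* and *Ckmt2* were also set against these markers as ratios. The ratio of *Ckm* to the summed fast-fibre markers was 0.139, 0.129 and 0.132 in the Wt mice, against 0.119, 0.114 and 0.114 in the mutant mice. The highest mutant mouse lay below the lowest Wt mouse, but this rested on *Myh1* in the sum. With *Myh1* left out, a choice made after the values were seen, the ratio was 0.139, 0.1301 and 0.134 in Wt and 0.1303, 0.128 and 0.124 in mutant mice, and the genotypes overlapped. To the pan-muscle sum, the ratio of *Ckm* was 0.375, 0.317 and 0.329 in Wt and 0.255, 0.232 and 0.243 in mutant mice, without overlap. With *Mb* left out of that sum, also after the values were seen, the genotypes still did not overlap. The ratio was then 0.376, 0.322 and 0.333 in Wt and 0.261, 0.238 and 0.249 in mutant mice. *Ckmt2* over the pan-muscle sum overlapped between the genotypes, at 0.00453 to 0.00738 in Wt and 0.0056 to 0.00652 in mutant mice. Over the slow-fibre sum, *Ckmt2* was at 8.40, 0.243 and 0.383 in Wt and 0.104, 0.088 and 0.115 in mutant mice, without overlap. *Ckm* over *Ckmt2* was 82.8, 43.0 and 54.3 in Wt mice and 39.5, 41.4 and 37.3 in mutant mice, also without overlap. It was highest in Wt mouse 1, where the slow-fibre sum was lowest. The ratios were formed after the values had been seen and are given without a test. The part of muscle content, and of the kind of muscle, in the differences between the mice was not tested.

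**Figure D3:**
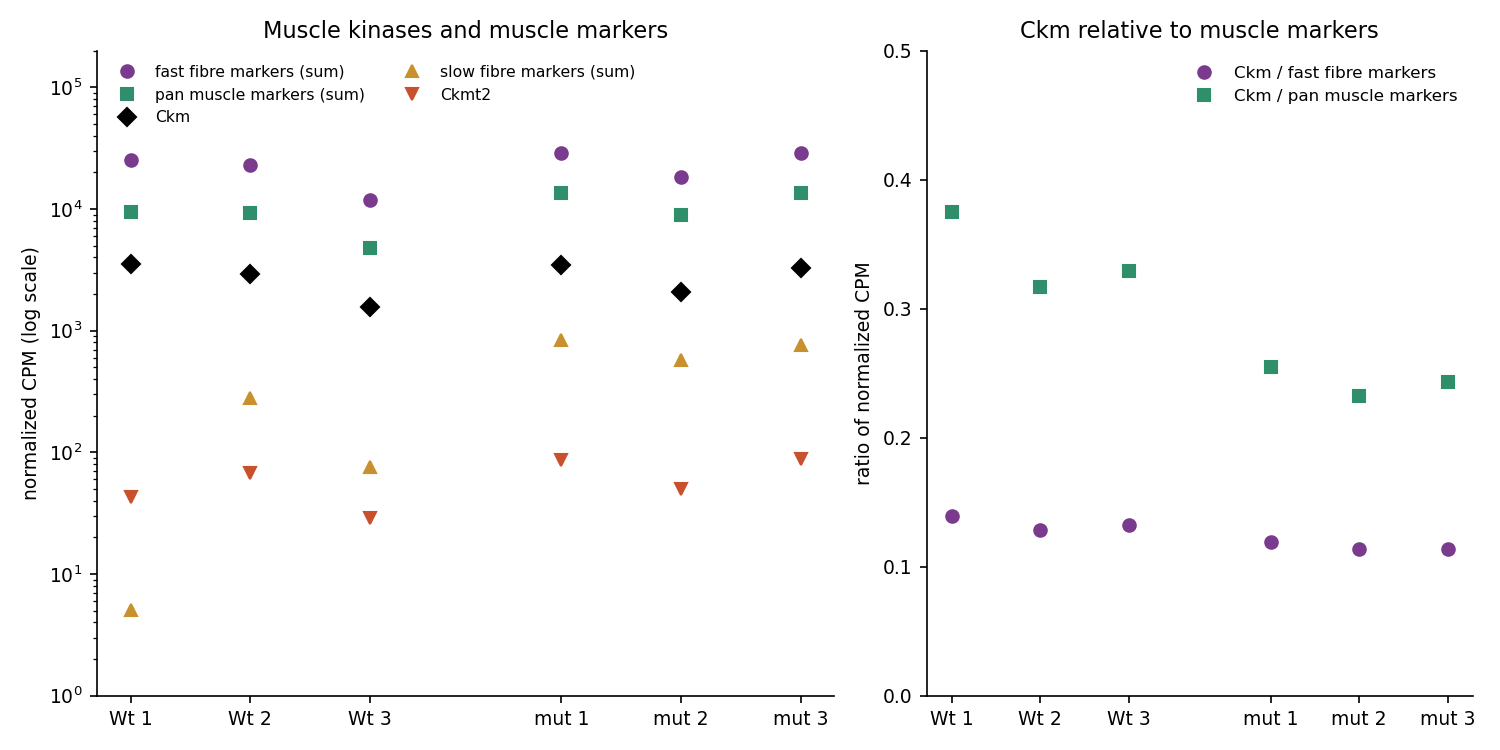
Left, normalized CPM on a log scale in each mouse for *Ckm*, *Ckmt2* and the summed markers of fast fibres, slow fibres and all skeletal muscle. Right, the ratio of *Ckm* to the fast-fibre and pan-muscle sums, which lies at 0.129 to 0.139 and 0.317 to 0.375 in the Wt mice and at 0.114 to 0.119 and 0.232 to 0.255 in the mutant mice. Without *Myh1* in the fast-fibre sum, which is not plotted, the genotypes overlapped in the fast-fibre ratio. In the pan-muscle ratio they did not overlap, with *Mb* in the sum or left out (the latter not plotted).

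The genes whose profiles over the 6 mice were most like those of the muscle kinases were found by the root mean square difference of log2 values, each centred on its own mean. No creatine metabolism gene tested spanned 2 or more on the log2 scale, the limit set for this search, and a limit of 1, chosen after the values were seen, admitted *Ckm* and *Ckmt2* among the genes tested. Nearest to *Ckm* were *Tmem233* (0.0319), *Pvalb* (0.0414), *Actn3* (0.0421), *Smtnl2* (0.0511) and *Ak1* (0.0613). *Pvalb* (parvalbumin) and *Actn3* (an alpha-actinin of fast fibres) are fast-fibre markers, and *Ak1* encodes the cytosolic adenylate kinase. Nearest to *Ckmt2* were *Alpk3* (0.0832), *Cox6a2* (0.11), *Itgb6* (0.15), *Cacna2d1* (0.15) and *Tcap* (0.15), of which *Cox6a2*, a cytochrome oxidase subunit of muscle, and *Tcap* (telethonin) are pan-muscle markers.

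Genes on the other strand overlap 3 of the kinases, and strand use in the counting is not stated, so their reads may not be separated from those of the kinases. *A930016O22Rik*, an antisense RNA, shares 451 exonic bases with *Ckm*. It was at 37.4, 19.6 and 18.7 in the Wt group, against 290, 190 and 269 in the mutant group, and rose by 3.33 on the log2 scale (SE 0.30, limma adjusted p = 0.00223), while *Ckm*, on average 2805, did not pass the test. *1700119I11Rik*, an antisense RNA that shares 84 exonic bases with *Ckmt2*, had 0, 2 and 1 reads in Wt mice and 13, 15 and 26 reads in mutant mice, at least 5.87-fold higher against a floor of 3 reads per library (limma adjusted p = 0.0148). Both separated the genotypes, whereas the kinases on the opposite strand did not. *Strc* shares 10 bases with *Ckmt1* and had 2 to 6 reads in each mouse.

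*Alpl* (ENSMUSG00000028766, chromosome 4, 137741733 to 137796384, minus strand) was at 10.7, 6.37 and 6.61 in the Wt group, against 7.91, 6.46 and 5.66 in the mutant group. Wt mouse 1 was highest, and the other 5 mice lay close together across the genotypes. Means were 7.90 ± 2.45 (SD, n = 3) in Wt and 6.68 ± 1.14 (SD, n = 3) in mutant mice, a log2 fold change of -0.20 (SE 0.23, limma adjusted p = 0.613) that was 0.03 without Wt mouse 1. Among the other phosphatases and the mineralisation partners of *Alpl*, 0 of the 5 tested passed the FDR (0 at an unadjusted p under 0.05, 0 in DESeq2 and in edgeR), with a median of -0.21. The largest differences were in *Enpp1*, which makes pyrophosphate (-0.52), and *Slc20a1*, a phosphate transporter (-0.33). The intestinal and germ-cell type alkaline phosphatases *Alpi*, *Akp3* and *Alppl2* had no more than 3 reads in any mouse, so that *Alpl* was the only alkaline phosphatase gene of the list above that floor.

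The genes that supply creatine synthesis with arginine, glycine and methyl groups did not pass the test, with 0 of 15 tested past the FDR in limma (1 at an unadjusted p under 0.05, 1 in DESeq2, 0 in edgeR) and a median log2 fold change of 0.02. The largest differences were -0.76 in *Ass1*, argininosuccinate synthase, and 0.42 in *Ahcy*, which clears the product of methylation, *S*-adenosylhomocysteine. *Otc*, the urea cycle gene of liver, had no more than 3 reads in any mouse. Among the genes for exchange of nucleotides across the mitochondrial membranes and for adenylate kinases, 0 of 9 passed in limma, DESeq2 or edgeR (1 at an unadjusted p under 0.05). The median of 0.22 depended on single mice, at -0.04 without Wt mouse 3, 0.06 without mutant mouse 1 and 0.41 without mutant mouse 2. The largest differences were in *Ak3* (0.42), the adenylate kinase of the mitochondrial matrix, and *Vdac1* (0.38), a channel of the outer membrane.

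**Figure D4:**
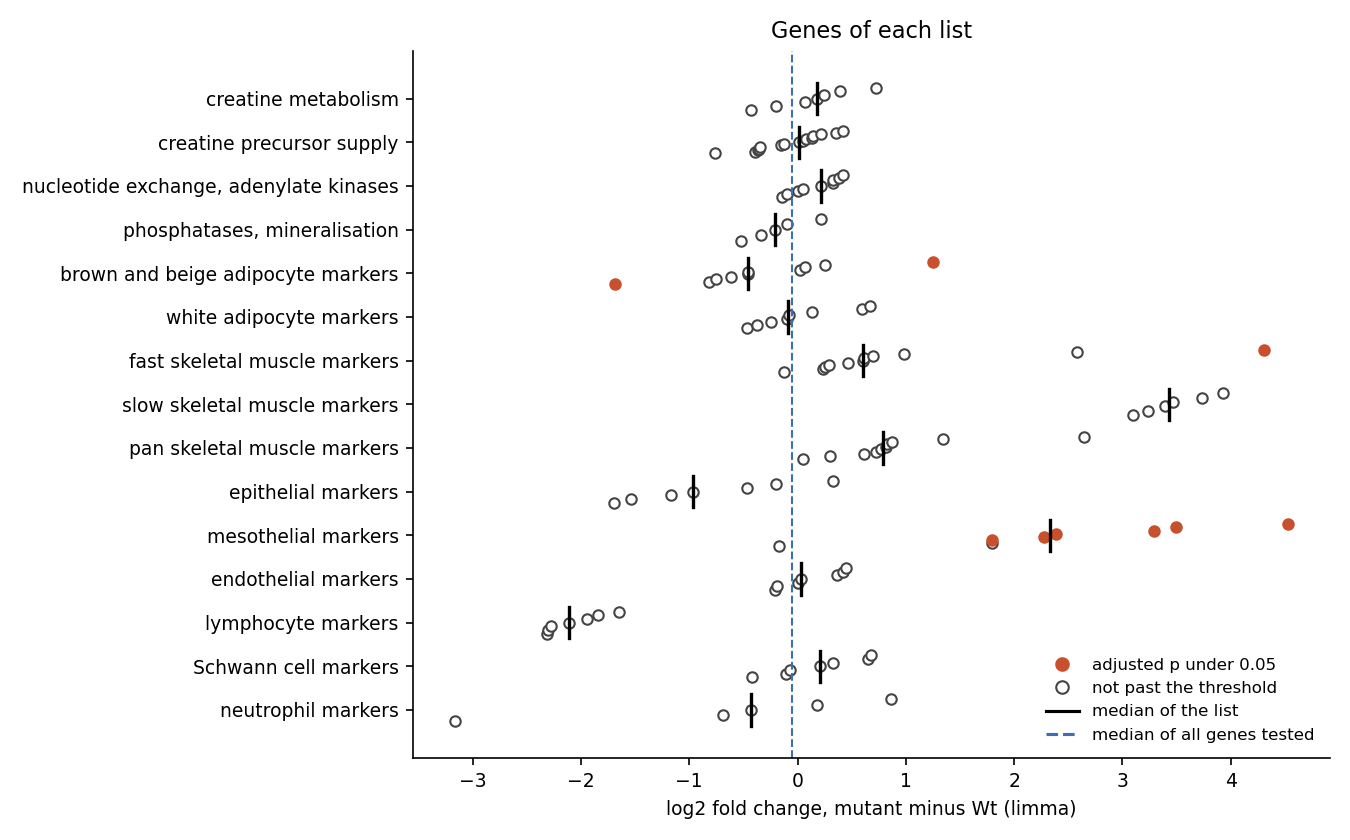
Log2 fold change (mutant minus Wt) of each gene tested, by list, with the list's median as a black bar and the median of all genes tested, -0.05, as a dashed line. Filled points passed the FDR of 0.05 in limma, which were 2 brown and beige, 1 fast muscle and 6 mesothelial markers, and 0 of the 7 creatine metabolism genes.

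Other cell types were read from marker lists for their values beside the creatine metabolism genes. The lists were chosen with earlier results of these data known, so the shares of all genes beside them are a description only. Of 8 mesothelial markers, 7 were higher in the mutant mice and 6 of these passed the FDR, beside 8.11% of all genes, with a list median of 2.33. They were led by *Upk3b* (4.53, adjusted p = 0.00487), *Msln* (3.49, adjusted p = 0.00304), *Upk1b* (3.29, adjusted p = 0.00125) and *Wt1*, the Wilms tumor gene (adjusted p = 0.00414, all limma). *Wt1* had at most 1 read in each Wt mouse and was at least 16.2-fold higher in the mutant mice against 3 reads per library, and with it at that bound the median of the list was 2.78. The summed mesothelial markers were 4.81 to 32.8 in Wt and 37.7 to 77.2 in mutant mice, and *Upk3b*, *Upk1b* and *Bnc1* were at 0 in Wt mouse 2 and *Wt1* in Wt mouse 1. The 32.8 was that of Wt mouse 1, where *Krt19* alone was at 28.5 and the epithelial sum was highest (82.9). For the counts at an unadjusted p under 0.05 that follow, the share of all genes was 24.2%. Of 7 endothelial markers, 0 passed in limma or edgeR, 3 in DESeq2 and 3 at an unadjusted p under 0.05, led by *Emcn* (0.45) and *Kdr* (0.42), with a median of 0.03. Of 7 Schwann cell markers, 0 passed in limma or edgeR, 2 in DESeq2 and 2 at an unadjusted p under 0.05, with *Cdh19* at 0.65 and a median of 0.21. The 7 lymphocyte markers had 0 past the FDR in each of the 3 tests and 0 at an unadjusted p under 0.05, with a median of -2.11 and *Cd79a* at -2.31. Mutant mouse 1 was far below the other mice, and without it the median was -0.17 and *Cd79a* was at -0.11. Of the 5 neutrophil markers tested, 0 passed in the 3 tests and 2 were at an unadjusted p under 0.05. DESeq2 gave *Ltf* no adjusted p. The largest differences were in *Ltf* (-3.16) and *S100a8* (0.86), and the median of -0.43 was 0.02 without Wt mouse 3 and -0.90 without Wt mouse 1. *Ltf* was at 46.6 in Wt mouse 1 and at 0.187 to 3.37 in the other mice, whereas *S100a8* was lowest in Wt mouse 1 (1.17). Without that mouse the log2 fold change of *Ltf* was -1.89 (limma adjusted p = 0.0389). The part of these cell types in the values of the creatine metabolism genes was not tested.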

How the data were processed

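iWAT libraries of 3 mutant and 3 Wt mice were grouped by the genotype in their labels. The authors deposited 1 value per gene and library, a signal that is CPM with a further scaling of each library. The submitters' processing notes name Bowtie2 2.1.0, RSEM 1.2.15, edgeR and the build mm10, without saying what each did, and the use of strand is not given in the sources used here. Within 0.01 reads, 100% of the values were a whole number of steps of 1 read, which gave the reads per gene.

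Genotypes were compared with limma 3.58.1 (R 4.3.3) on log2(value + 0.5) with a trended variance, a scale that understates the change of low genes, over the 16868 genes kept by filterByExpr of edgeR 4.0.16, with Benjamini-Hochberg adjustment (FDR 0.05). The steps were tested on simulated data. DESeq2 1.42.0, other filters, pseudocounts and scalings, GC correction, a replicate block and the omission of single mice were alternatives. The creatine metabolism genes and the marker lists were chosen with earlier results of these data known. From each list, genes past the FDR were named (at most 4), otherwise the 2 with the largest log2 fold change. Of the genes that this rule names, 2 are not reported here. Coordinates, exons and lengths are of GENCODE M21 on GRCm38, which held 99.8% of the identifiers, and promoters are of RefSeq. Libraries of the same genotype differed far beyond counting noise (19.3 to 64.9 in chi-square over its degrees of freedom), so each was counted as a sample, and nothing says how the mice were related.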

Additional observations from a re-analysis of the deposited data

How the results depend on the processing

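Over the 17 alternatives to the test reported, the log2 fold changes of *Ckb*, *Ckmt2*, *Gamt* and *Slc6a8* kept their sign. *Gatm* reversed under the GC correction, with and without the replicate block (-0.0037), without Wt mouse 2 (-0.0032) and without mutant mouse 2 (-0.0771, in a range up to 0.17 without single mice), *Ckm* without Wt mouse 3 (-0.168, up to 0.42) and *Alpl* without Wt mouse 1 (0.0272, down to -0.33). *Ckb* passed the FDR in DESeq2 (-0.42) and with the replicate block (-0.43, adjusted p = 0.0282, limma), and *Gamt* (0.51) and *Slc6a8* (0.55) did so with the GC correction and block together. The creatine metabolism genes called were thus 1 in DESeq2, 1 with the block and 2 with the GC correction and block. The numbers were not taken to pair the mice, because they are those of different animals and no source pairs them. The correlations of deviations between mice of the same number were 0.686, 0.0573 and 0.56. Between mice of different numbers they ran from -0.67 (Wt mouse 1, mutant mouse 3) to 0.536 (Wt mouse 3, mutant mouse 2). With 3 mice per genotype these values do not decide whether mice of 1 number share something.

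Over all genes, 1368 calls became 2118 in DESeq2, 4063 with the replicate block, 3246 with the GC correction and block, 598 with at least 10 reads in every mouse, and 554 to 1005 without single mice. Over the other lists together, 9 calls became 23, 31, 24 and 3 in the same order and lay between 6 and 11 without single mice. With the length of the longest coding transcript, the kinase shares moved to 2.71% (Wt) and 1.75% (mutant) for *Ckb*, and in mutant mice to 93.8% for *Ckm* and 4.404% for *Ckmt2*. With the longest transcript, the last 2 were 94.6% and 4.44%. The cause of these changes was not tested. Low read numbers limit *Ckmt1*, and 3 mice per genotype limit the other genes.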
